A study of Arabidopsis thaliana with 18 samples.

Results

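Transcript levels of 4 nuclear genes of photosynthesis, RCA, PSBY, LHCB4.1 and LHCB4.2, were followed in developing seeds of Arabidopsis thaliana. The members were the probe sets that the gene table of the array platform assigns to these genes, and each gene had 1 probe set, so they make up 4 of the 22746 probe sets tested. A probe set combines several short oligonucleotides designed against the same transcript. Their loci are AT2G39730 for RCA, AT1G67740 for PSBY, AT5G01530 for LHCB4.1 and AT3G08940 for LHCB4.2. All 4 carried 1 gene in that table and none was lost to a filter.

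Seeds of Col-0, the accession of the reference genome, and of C24, another natural accession, were sampled 8-9, 10-11 and 12-13 days (d) after the flower opened. No genetic change or treatment is named in the labels, and plants of both accessions were grown under 16 h of light. Each of the 6 groups held 3 arrays, 18 in all, and each array carried RNA from 1 pool of seeds taken out of 48 siliques, the seed pods, of 6 plants, with plants from both of the 2 growth experiments in each pool. The labels do not say that pools of a group came from separate plants, and the p-values therefore cover only the spread among the pools. The seeds were whole, so seed coat, endosperm and embryo were measured together, and fewer cells of a type cannot be told apart from less RNA per cell.

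Photosynthesis joins light capture in the thylakoid membranes of the plastid to carbon fixation in the Calvin cycle. The proteins studied here are made in the cytosol from nuclear genes and imported into the plastid. LHCB4.1 and LHCB4.2 encode forms of CP29, an antenna protein that sits between the light-harvesting trimers and the core of photosystem II. PSBY encodes a small thylakoid membrane protein of photosystem II, and RCA encodes Rubisco activase, which frees the active sites of the carbon-fixing enzyme Rubisco from bound sugar phosphates. Arabidopsis embryos are green in the middle of seed development and lose their chlorophyll before the seed dries.

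Deposited signals are RMA values in log2 units, a method that brings the overall distributions of the arrays close to each other. An array has no read depth, and the number of arrays limits the precision. Array medians lay between 5.84 and 5.96, and arrays of a group correlated over all probe sets with Pearson's r of 0.993 to 0.997. Within groups the SD of the median probe set ranged from 0.0924 to 0.132. Titles, descriptions and the genotype field name the same accession for each sample, and these were used, whereas the source name gives the opposite one for all 18. If the source names were right, every accession direction below would turn around. On the arrays titled C24, 18 probe sets were lower by 2 log2 units or more at all 3 stages and 9 were higher, which does not settle the labels.

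The signal of all 4 genes fell from stage to stage in both accessions. LHCB4.1 fell the most and PSBY the least. LHCB4.2 was lower in C24 than in Col-0 at each stage, RCA was lower in C24 at the last stage, and for PSBY no difference between the accessions was detected. Whether C24 and Col-0 differ in sequence under the probes of a gene, which could change its signal, was not tested. A gene was called at a limma p-value under 0.05 after Benjamini-Hochberg adjustment over all probe sets tested.

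**Figure D1:**
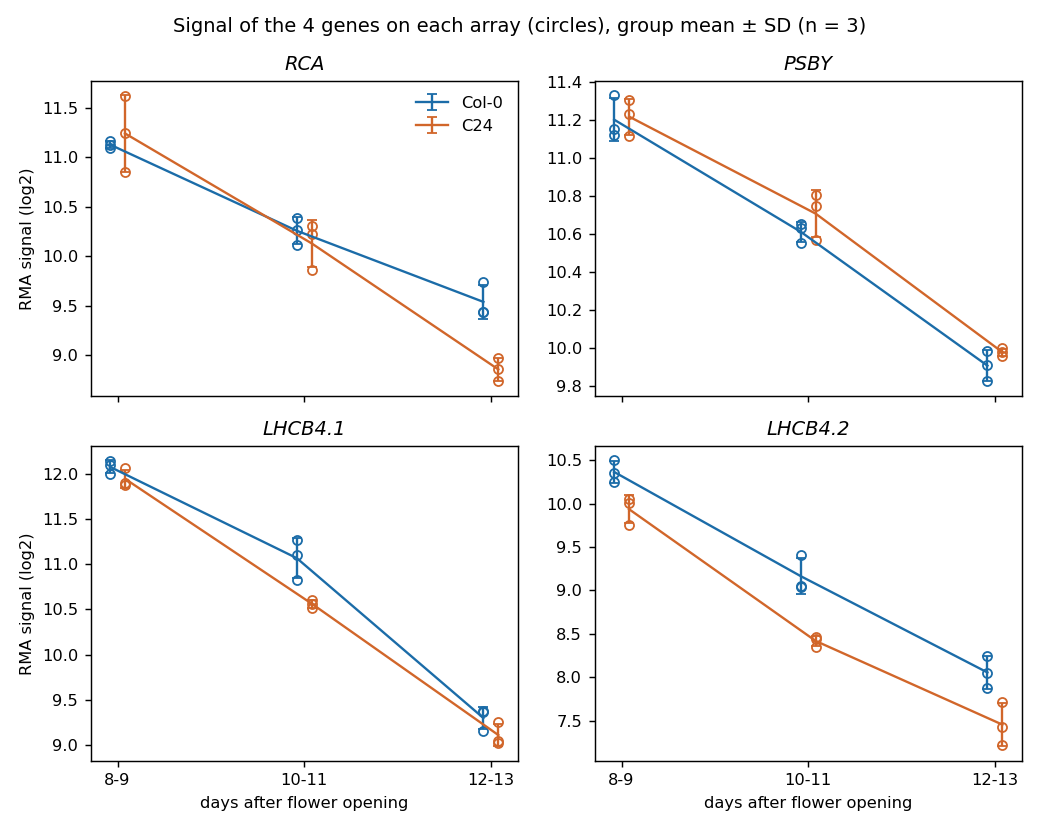
RMA signal (log2) of the 4 genes against days after flower opening in Col-0 and C24. Circles are single arrays, and lines join group means with their SD (n = 3). The axes start above 0 and differ between genes. For all 4 genes the arrays at 12-13 d lay below those at 10-11 d of the same accession, and these below those at 8-9 d. Here and below, overlap of arrays was not counted over all probe sets, so how common such separation is remains unknown.

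Of the antenna genes, LHCB4.1 gave log2 signals of 12.14, 12.00 and 12.10 on the Col-0 arrays at 8-9 d, 11.10, 11.27 and 10.83 at 10-11 d, and 9.16, 9.38 and 9.36 at 12-13 d. On the C24 arrays its signals were 12.06, 11.88 and 11.90, then 10.52, 10.61 and 10.57, then 9.26, 9.05 and 9.03. Within each accession no 2 stages overlapped. From 8-9 to 12-13 d the log2 change was -2.78 for Col-0 (6.86-fold lower, SE 0.10, limma adjusted p = 2.92e-15) and -2.84 for C24 (7.14-fold lower, SE 0.10, 2.92e-15). Only 0.985% of all probe sets had a lower log2 change than LHCB4.1 in Col-0 and 0.721% in C24. The order of its group means was Col-0 then C24 at 8-9 d, then Col-0 and C24 at 10-11 d, then Col-0 and C24 at 12-13 d, and the arrays of these neighbours overlapped at 8-9 and 12-13 d.

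LHCB4.2 had log2 signals of 10.50, 10.35 and 10.24 in Col-0 at 8-9 d, 9.04, 9.40 and 9.04 at 10-11 d, and 7.87, 8.04 and 8.25 at 12-13 d. In C24 they were 10.00, 10.05 and 9.75, then 8.35, 8.44 and 8.46, then 7.71, 7.21 and 7.43. No neighbours among the 6 groups overlapped, and C24 was below Col-0 at each stage. Over the whole course the log2 change was -2.31 for Col-0 (4.96-fold lower, SE 0.13, limma adjusted p = 1.67e-12) and -2.48 for C24 (5.59-fold lower, SE 0.13, 6.57e-13). By 12-13 d the signal had come down to 20.2% of its 8-9 d level for Col-0 and 17.9% for C24, against 14.6% and 14.01% for LHCB4.1. Whether either probe set also binds the transcript of the other CP29 gene was not tested.

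PSBY had log2 signals of 11.33, 11.15 and 11.12 in Col-0 at 8-9 d, 10.63, 10.65 and 10.55 at 10-11 d, and 9.83, 9.99 and 9.91 at 12-13 d. In C24 they were 11.30, 11.23 and 11.12, then 10.81, 10.75 and 10.57, then 9.98, 10.00 and 9.96. The accessions overlapped at every stage, while the stages of an accession did not overlap. In the order of group means C24 stood just above Col-0 at each stage. The PSBY change over the whole course was -1.29 for Col-0 (2.45-fold lower, SE 0.09, limma adjusted p = 3.07e-11) and -1.24 for C24 (2.36-fold lower, SE 0.09, 7.36e-11), so 40.8% and 42.4% of the first signal remained.

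RCA, on the carbon fixation side, had log2 signals of 11.13, 11.17 and 11.09 in Col-0 at 8-9 d, 10.27, 10.39 and 10.12 at 10-11 d, and 9.74, 9.43 and 9.44 at 12-13 d. In C24 they were 11.63, 10.85 and 11.25, then 10.22, 10.31 and 9.86, then 8.97, 8.73 and 8.86. The C24 arrays at 8-9 d spread more (SD 0.39) than the Col-0 arrays of that stage (SD 0.04). The accessions overlapped at 8-9 and 10-11 d and lay apart at 12-13 d, with C24 lower. In the order of group means C24 came first at 8-9 d and last at 12-13 d. The whole log2 change was -1.59 for Col-0 (3.01-fold lower, SE 0.15, limma adjusted p = 7.12e-09) and -2.39 for C24 (5.24-fold lower, SE 0.15, 1.16e-11), which left 33.2% and 19.1% of the first signal.

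All 4 genes were called lower in each step and over the whole course in both accessions. In Col-0, 20.1% of all probe sets were called lower from 8-9 to 10-11 d, 16.5% from 10-11 to 12-13 d and 27.6% from 8-9 to 12-13 d. In C24 these shares were 23.5%, 12.3% and 27.5%. When each array was scaled to the 8 measured reference genes, the change from 8-9 to 12-13 d of all probe sets moved up by 0.29 log2 units for Col-0 and by 0.17 for C24, and the share called lower became 17.4% and 20.1%. On that scale the 4 genes were still called lower in every step, and their whole changes were -1.303 for RCA, -1.005 for PSBY, -2.49 for LHCB4.1 and -2.02 for LHCB4.2 in Col-0, and at -2.21, -1.06, -2.66 and -2.31 in C24.

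Whether a gene fell more in the later step than in the earlier one was tested as the second change minus the first, a comparison added after the data had been seen. For LHCB4.1 on the Col-0 arrays the first change was -1.01 and the second -1.77 (SE 0.10 each), a difference of -0.76 (SE 0.18, limma adjusted p = 0.00477). Without Col-0 replicate 2 of 10-11 d that difference was -0.55 and was no longer called (adjusted p = 0.0677). In C24 the changes of LHCB4.1 were -1.38 and -1.45, with a difference of -0.07 that was not called (SE 0.18, adjusted p = 0.832).

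For LHCB4.2 the first and second changes were -1.20 and -1.11 on the Col-0 arrays and -1.52 and -0.96 on the C24 arrays. Its second minus first change in C24 was 0.55 (SE 0.22, limma adjusted p = 0.0831), not called with all arrays and called without C24 replicate 3 of 8-9 d (adjusted p = 0.0465) or without C24 replicate 2 of 12-13 d (0.0329). The changes of PSBY were -0.59 and -0.70 for Col-0, then -0.51 and -0.73 for C24. Those of RCA were -0.87 and -0.72 for Col-0, then -1.11 and -1.28 for C24. For PSBY and RCA neither accession's steps were called different. In all, 1 of the 4 genes was called in Col-0, where 17.5% of all probe sets were. In C24 it was 0 of 4, where 22.9% of all probe sets were called. At an unadjusted limma p under 0.05 there was 1 in C24, and the share of all probe sets at that level was not counted.

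**Figure D2:**
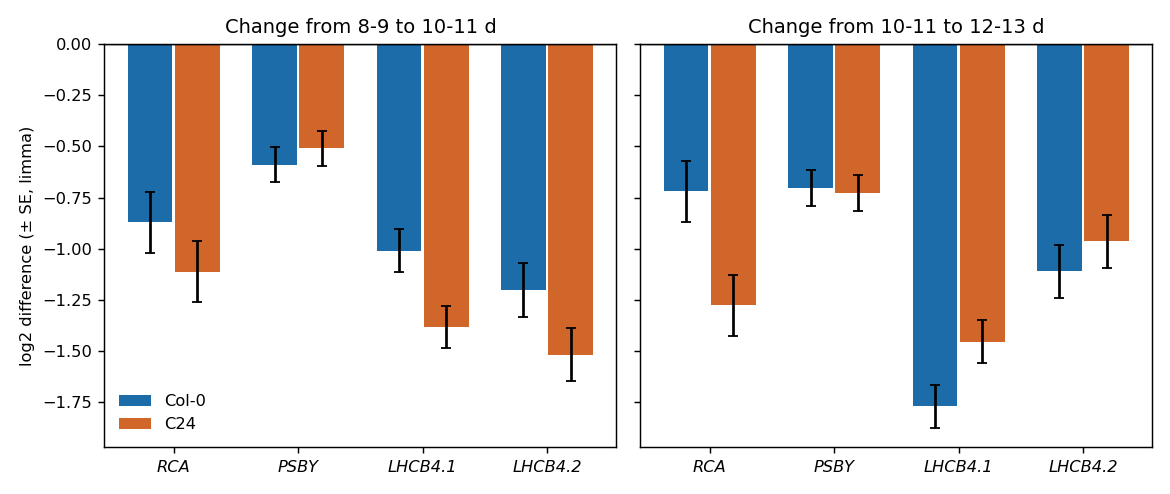
Log2 difference of each gene between neighbouring stages, from 8-9 to 10-11 d on the left and from 10-11 to 12-13 d on the right. Bars are limma estimates in Col-0 and C24, and error bars are their SE. LHCB4.1 in Col-0 had the deepest bar, -1.77 in the second step, and the PSBY bars were between -0.51 and -0.73.

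Falls of different genes were compared as the log2 difference of 2 genes on the same array, in tests added after the data had been seen. All 6 pairs were tested, for stage with arrays permuted within each accession and for accession with arrays permuted within each stage, in 12 exact two-sided permutation tests whose p-values were adjusted together by Benjamini-Hochberg. The smallest p these could give was 0.005 for stage and 0.00025 for accession. From 8-9 to 12-13 d LHCB4.1 fell more than LHCB4.2, with a difference of -0.47 for Col-0 and -0.35 for C24 (exact p = 0.01, adjusted p = 0.015). PSBY fell less than LHCB4.1 by 1.54 on average (exact p = 0.005, adjusted 0.01) and less than LHCB4.2 by 1.13 (0.005, adjusted 0.01), in both accessions. RCA fell less than LHCB4.1 by 0.82 (exact p = 0.005, adjusted 0.01) and more than PSBY (-0.72 on average, -0.30 for Col-0 and -1.15 for C24, exact p = 0.01, adjusted 0.015). RCA and LHCB4.2 were not called different (0.41 on average, 0.72 in Col-0 and 0.09 in C24, exact p = 0.065, adjusted 0.0709). These are differences between signals of probe sets. Whether probe sets of different genes respond equally to a change in transcript level was not tested.

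C24 minus Col-0 at a stage was the second question of the design. At 8-9 d LHCB4.2 was lower in C24 by a log2 of -0.43 (SE 0.13, limma adjusted p = 0.0227), 1 of the 4 genes against 19.4% of all probe sets called in either direction. This call was lost without Col-0 replicate 1 or 2 (adjusted p = 0.108 and 0.0548) or C24 replicate 3 (0.109). RCA at 0.11, PSBY at 0.02 and LHCB4.1 at -0.13 were not called.

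At 10-11 d, 2 of the 4 genes were called, against 17.9% of all probe sets. LHCB4.2 was lower in C24 by a log2 of -0.75 (SE 0.13, limma adjusted p = 0.000257) and LHCB4.1 by -0.50 (SE 0.10, 0.00147). Here the LHCB4.1 arrays of the accessions did not overlap, which they did at the stages before and after. RCA at -0.13 and PSBY at 0.10 were not called.

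At 12-13 d, 2 of the 4 genes were called, against 22.0% of all probe sets. RCA was lower in C24 by a log2 of -0.68 (SE 0.15, limma adjusted p = 0.0019), a 1.61-fold difference, and LHCB4.2 by -0.60 (SE 0.13, 0.00174), a 1.52-fold difference. LHCB4.1 was at -0.19 (95% interval -0.41 to 0.03, adjusted p = 0.224) and PSBY at 0.07 (-0.11 to 0.25, 0.625). The 95% intervals of PSBY at the other stages ran from -0.16 to 0.20 at 8-9 d and from -0.08 to 0.28 at 10-11 d, so a small accession difference of PSBY cannot be told from 0 with these arrays.

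**Figure D3:**
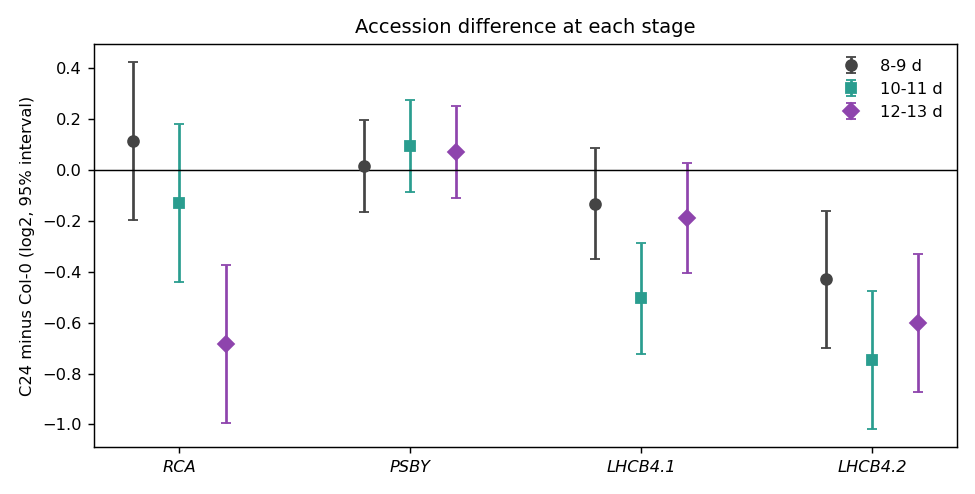
C24 minus Col-0 on the log2 scale for each gene at 8-9, 10-11 and 12-13 d, with the 95% interval of the limma fit. A point below 0 means a lower signal in C24. All 3 intervals of LHCB4.2 lay below 0, as did that of RCA at 12-13 d and that of LHCB4.1 at 10-11 d, and the intervals of PSBY all crossed 0.

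Averaged over the stages, in a comparison added after the data had been seen, C24 was lower by a log2 of -0.59 for LHCB4.2 (SE 0.07, limma adjusted p = 2.17e-06), by -0.27 for LHCB4.1 (SE 0.06, 0.00116) and by -0.23 for RCA (SE 0.09, 0.042), while PSBY was at 0.06 (SE 0.05, 0.391). These are 3 of the 4 genes, against 33.3% of all probe sets. The RCA call was lost when any of 11 of the 18 arrays was left out (adjusted p from 0.0533 to 0.0992). Within arrays the log2 difference LHCB4.1 minus LHCB4.2 was larger in C24 at each stage, by 0.30, 0.24 and 0.41 (exact p = 0.0005, adjusted 0.002). The accession difference in signal was thus unequal between the probe sets of the antenna genes. PSBY minus LHCB4.2 was also larger in C24 at each stage (0.65 on average, exact p = 0.00025, the smallest possible, adjusted 0.0015), as was PSBY minus LHCB4.1 (0.34, exact p = 0.00025, adjusted 0.0015).

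The remaining pairs involve RCA. RCA minus LHCB4.2 was larger in C24 by 0.36 on average, at 0.54 and 0.62 at the earlier stages and -0.08 at 12-13 d (exact p = 0.0297, adjusted 0.0397). RCA minus PSBY was at -0.29, with 0.10 at 8-9 d, -0.22 at 10-11 d and -0.75 at 12-13 d (exact p = 0.0387, adjusted 0.0465). RCA minus LHCB4.1 was at 0.04 on average, with stage values of 0.25, 0.38 and -0.49 that have opposite signs (exact p = 0.755, adjusted 0.755). The accession difference of RCA at 8-9 d went from 0.11 to -0.08 without C24 replicate 1 of that stage, so the sign of small values here can rest on 1 array.

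Whether the accessions differed in their change over time was tested as the C24 change minus the Col-0 change. From 8-9 to 12-13 d RCA fell further in C24, by a log2 of -0.80 (95% interval -1.24 to -0.36, SE 0.21, limma adjusted p = 0.0191), 1 of the 4 genes against 9.14% of all probe sets. The call was lost without Col-0 replicate 1 of 12-13 d (adjusted p = 0.0538), C24 replicate 1 of 8-9 d (0.0556) or C24 replicate 2 of 12-13 d (0.0527), with values of -0.70, -0.61 and -0.74. LHCB4.1 was at -0.06 (95% interval -0.36 to 0.25), LHCB4.2 at -0.17 (-0.55 to 0.21) and PSBY at 0.05 (-0.20 to 0.31), and none of these was called.

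For the first step 0 of the 4 genes were called by limma in this comparison, against 6.54% of all probe sets. LHCB4.1 was called in that step without Col-0 replicate 3 of 10-11 d (-0.49, adjusted p = 0.0406). For the second step 0 of 4 were called, against 5.92% of all probe sets. At an unadjusted p under 0.05 there was 1 in the first step, LHCB4.1 at -0.37. In the second there were 2, RCA at -0.56 and LHCB4.1 at 0.32. The share of all probe sets at that unadjusted level was not counted.

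The pathway lists name 142 loci, and 25 of these had a probe set with 1 gene, the 4 genes included. Of the other 21, 18 fell, 2 rose and 1 was not called from 8-9 to 12-13 d in Col-0, and the counts were the same in C24. Of all probe sets, 27.6% were called lower and 26.6% higher for Col-0, and 27.5% and 26.2% for C24. Their median log2 change was -1.61 for Col-0 and -1.45 for C24, while the median over all probe sets was 0.02 and 0.04. These lists were written with earlier results of these data known.

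The third CP29 gene, LHCB4.3, fell as well (log2 change -1.25 for Col-0 and -0.98 for C24, SE 0.09), and at 12-13 d it was higher in C24 by 0.36 (SE 0.09, limma adjusted p = 0.00597), the opposite direction to LHCB4.2. In photosystem II, PSBW, a small core subunit, fell (-1.64 and -1.83, SE 0.10), while PSB27, an assembly factor of that photosystem, rose by 0.45 and 0.54 (SE 0.11, adjusted p = 0.00131 and 0.000265). Both measured photosystem I genes fell, PSAE-1, a subunit on the stromal side, at -2.06 and -2.04 and PSAN, a subunit on the lumen side, at -2.28 and -2.20. ATPC1, a gamma subunit of the plastid ATP synthase, fell (-2.24 and -2.32), while ATPC2, the other gamma subunit gene, was at -0.16 and -0.21 and was not called, a difference smaller in Col-0 than the 0.29 by which the reference genes move all probe sets.

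In the Calvin cycle all 4 measured genes, RCA among them, fell in both accessions. PRK, phosphoribulokinase, had log2 changes of -0.99 for Col-0 and -0.81 for C24, and SBPASE, sedoheptulose bisphosphatase, of -1.61 and -1.29. SBPASE was higher in C24 at 12-13 d by 0.43 (SE 0.11, limma adjusted p = 0.00698), so at this stage RCA and SBPASE were called in opposite directions.

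Of 9 measured genes of chlorophyll synthesis 8 fell and 1 rose in both accessions. PORB, a light-dependent protochlorophyllide oxidoreductase, had log2 changes of -3.78 for Col-0 and -3.03 for C24 (SE 0.16), and CHLM, the magnesium protoporphyrin methyltransferase, of -2.62 and -2.90 (SE 0.11). HEMA2, a glutamyl-tRNA reductase, rose by 0.54 and 0.38 (SE 0.10), but its group means, 4.71 to 5.37, were all below the median of every array. HEMB1, of porphobilinogen synthesis, was lower in C24 at all 3 stages, by -0.85, -0.66 and -0.54 (SE 0.09, limma adjusted p at most 0.000111). NOL, a chlorophyll b reductase that starts chlorophyll breakdown, fell (-1.31 and -1.01, SE 0.11).

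**Figure D4:**
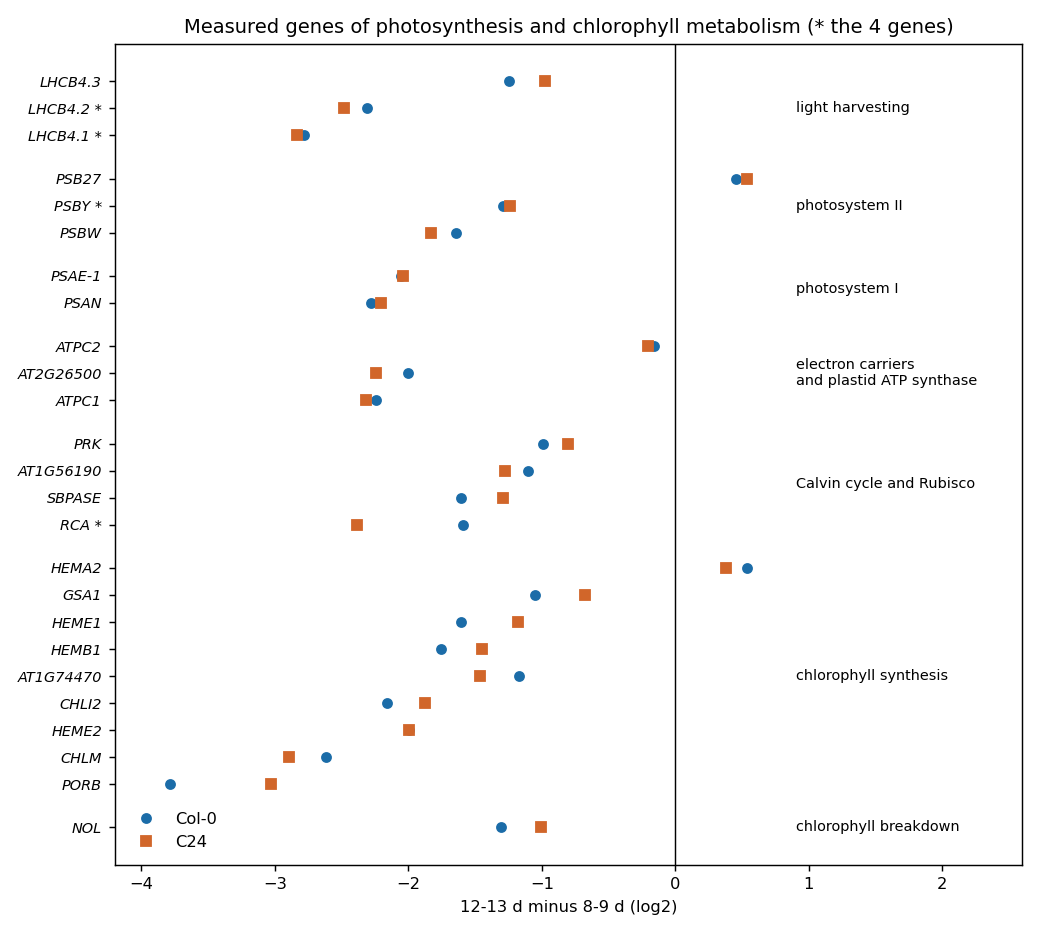
Log2 change from 8-9 to 12-13 d of the 25 measured genes of photosynthesis and chlorophyll metabolism in Col-0 (circles) and C24 (squares), grouped by role, with asterisks on the 4 genes described here. Points left of 0 were lower at 12-13 d. RCA had the widest gap to the left in C24, and PSB27 and HEMA2 lay right of 0.

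In the first step 20.1% of all probe sets were called lower for Col-0 and 23.5% for C24, and in the second 16.5% and 12.3%. Most of the 21 other genes were called lower in the first step (15 for Col-0, 17 for C24) and in the second (17 and 17). Their second minus first change was called below 0 for 9 genes and above 0 for 3 on the Col-0 arrays, where 9.29% and 8.22% of all probe sets were. On the C24 arrays it was below 0 for 6 and above 0 for 5, against 11.1% and 11.9% of all probe sets. The second minus first change was called below 0 for PSBW, PSAN, AT2G26500, ATPC1 and PRK in both accessions. It was called above 0 for PORB (1.00 for Col-0 and 1.47 for C24), for CHLI2, a magnesium chelatase subunit (1.301 and 1.12), and for GSA1, glutamate-1-semialdehyde aminomutase (0.63 and 0.61), which lost more of their signal in the first step. Against these, LHCB4.1 in Col-0 was on the side of PSBW and PSAN, and LHCB4.2 in C24 was on the side of PORB without being called. The CHLI2 mean was already 5.59 in Col-0 and 5.54 in C24 at 10-11 d, below the median of every array. At 12-13 d PORB was at 5.74 and 6.18, and GSA1 at 6.95 and 7.22. Whether low signals limited a second change was not tested.

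**Figure D5:**
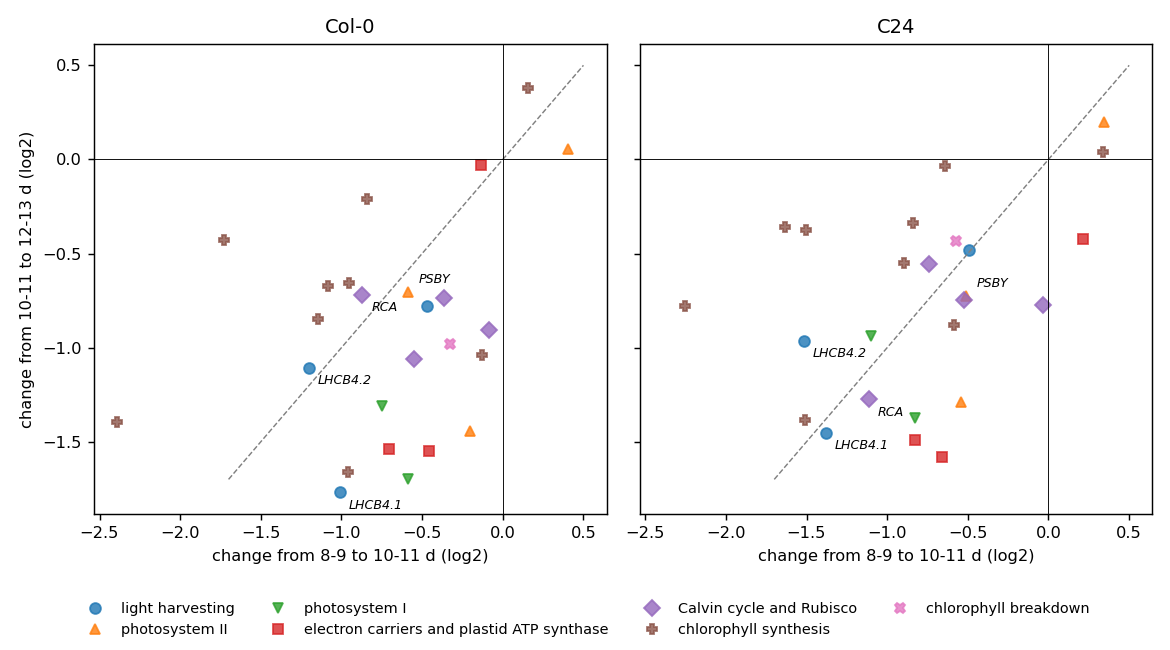
Log2 change from 8-9 to 10-11 d (horizontal) against that from 10-11 to 12-13 d (vertical) for the 25 measured genes, Col-0 on the left and C24 on the right, with symbols by role and the names of the 4 genes. On the dashed line both changes are equal, and points below it fell more in the second step. LHCB4.1 in Col-0 lay well below the line, and PORB, CHLI2 and GSA1 were among the chlorophyll synthesis genes above it in both accessions.

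Across the 18 arrays the signals of the 4 genes correlated with Pearson's r between 0.913 (PSBY with LHCB4.2) and 0.972 (PSBY with LHCB4.1). The arrays share stage and accession, so these values describe the pattern and carry no test. Among 1812 probe sets with 1 gene and an SD over the arrays of at least 0.5, those most like LHCB4.1 were AT3G05600 (r = 0.996), CaS, a thylakoid calcium sensing protein (0.995), and PSAE-1 (0.995). Most like LHCB4.2 were AT5G65220 (r = 0.991), AT4G30993 (0.985) and AT5G66530 (0.985). PSBY was most like AT2G38970 (r = 0.989), AT5G13520 (0.989) and CHR40, a chromatin remodelling protein (0.987). RCA had lower values, with AT1G49840 (r = 0.973), AT3G47650 (0.971) and ASPGA1, an asparaginase (0.969). An r above 0.95 was reached by 152 probe sets with LHCB4.1, 124 with PSBY, 99 with LHCB4.2 and 27 with RCA.

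Other features of the seeds moved with stage beside the 4 genes, and their part in the falls was not tested. Of 10 seed coat markers 2 were measured, BAN and AT3G50990, and their summed linear signal ran from 3348 to 3826 in Col-0 at 8-9 d, from 403 to 550 at 10-11 d and from 162 to 257 at 12-13 d. In C24 it ran from 1718 to 2188, from 349 to 483 and from 280 to 362. Of 12 embryo maturation markers 3 were measured, AT1G03890, PAP85 and OLEO3, and their sum went from between 10944 and 12961 to between 28506 and 28871 for Col-0, and from between 13732 and 16763 to between 32304 and 33190 in C24. Over this interval both seed coat markers were called lower in both accessions. Of the embryo maturation markers AT1G03890 and PAP85 were called higher in both, while OLEO3, an oil body protein, was called lower in Col-0 (log2 change -0.35, SE 0.07, limma adjusted p = 0.000416) and not called in C24 (-0.05, SE 0.07, adjusted p = 0.598). Between accessions the seed coat sums lay apart at 8-9 d, with Col-0 higher, and at 12-13 d, with C24 higher. Both seed coat markers were called lower in C24 at 8-9 d. At 12-13 d only BAN was called, higher in C24 by 0.74, and AT3G50990 was at -0.05. The embryo maturation sums were higher in C24 at each stage. Of these 3 markers 2 were called higher in C24 at 8-9 d, 1 at 10-11 d and 1 at 12-13 d. Over all probe sets 11.7%, 9.92% and 12.2% were called higher at these stages. The part of the marker differences in the accession differences was not tested.

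Of 11 endosperm markers 2 were measured, AGL62 and IKU2, at 27.3 to 34.5 summed over all groups and with none called by limma over the whole course in either accession. Their log2 group means reached at most 3.45 for AGL62 and 4.49 for IKU2, below the median of every array. At signals this low a change in endosperm could go unseen. Of 8 silique wall markers, a tissue removed by dissection, 2 were measured, ALC and ADPG1, with sums of 80.4 to 87.8 in Col-0 at 8-9 d and 127 to 204 at 12-13 d, and of 88.6 to 171 and 135 to 153 in C24. RMA values have no zero, so no marker was at 0. The log2 difference between 3' and 5' control probe sets, a sign of RNA quality, averaged 2.73 for Col-0 against 0.03 for C24 at 8-9 d for actin, and 3.26 against 0.06 at 12-13 d. For GAPDH it lay between -0.10 and 0.58 on all arrays and for ubiquitin between -0.48 and 0.09. Older pairs for these transcripts gave other values, with GAPDH means of 0.89, 1.28 and 1.77 over the stages for Col-0 and of 0.94, 1.44 and 1.19 for C24, and ubiquitin means of 0.88, 0.52 and 0.44 and of 0.94, 0.91 and 0.77. An older actin pair on the array had means of 1.84 and then 0.93 for Col-0 at the first and last stage, and of 0.85 and then -0.28 for C24. The part of these control differences in the accession results was not tested.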

How the data were processed

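RNA from 18 seed pools was hybridised to 18 arrays. The deposited values are log2 signals made with RMA, per the submitters' processing notes. No version is given in the sources used here. Of 22810 probe sets, 64 controls were left out and 22746 tested, with no filter on low values. Genes were named from the platform gene table, which gives 1 gene for 13513 probe sets, several for 503 and does not list 8730.

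All 18 arrays entered a single linear model with 6 group means (lmFit, then eBayes, of limma version 3.58.1 under R version 4.3.3). It gave 12 comparisons and 3 more added after seeing the data, with Benjamini-Hochberg adjustment over all probe sets within each comparison and calls at an adjusted p under 0.05. The procedure was tested on simulated data. Differences between genes on an array were tested by exact permutation, also added after seeing the data.

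The members and gene lists were chosen with earlier results of these data known. The text names the 4 genes, genes of the pathway, marker and reference lists, and for each of the 4 the 3 probe sets with the highest Pearson's r. Alternatives were renewed quantile normalization, scaling to 8 reference genes, a mean log2 of at least 6, a trend with robust eBayes, a fit of the compared groups alone, the replicate number as a block, and leaving out each array.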

Additional observations from a re-analysis of the deposited data

Results flagged for a closer look

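The change from 8-9 to 12-13 d differed between the accessions for RCA, by -0.80 on the log2 scale (C24 minus Col-0, SE 0.21, limma adjusted p = 0.0191), with the C24 fall the larger. For PORB it differed by 0.75 (SE 0.22, adjusted p = 0.0359), with the Col-0 fall the larger. In the step from 8-9 to 10-11 d the accessions differed for CHLM by -0.55 (SE 0.16, adjusted p = 0.0428) and for AT1G74470, a locus of the chlorophyll synthesis list, by -0.45 (SE 0.13, adjusted p = 0.0367). In the step from 10-11 to 12-13 d they differed for NOL by 0.55 (SE 0.16, adjusted p = 0.0405). Of the 21 other pathway genes 1 was called over the whole course, 2 in the first step and 1 in the second. Of the 4 genes these counts were 1, 0 and 0. Over all probe sets 9.14%, 6.54% and 5.92% were called, so such calls were about as common on the whole array. The RCA call was lost without Col-0 replicate 1 of 12-13 d, C24 replicate 1 of 8-9 d or C24 replicate 2 of 12-13 d (adjusted p = 0.0538, 0.0556 and 0.0527). For PORB, CHLM, AT1G74470 and NOL the calls were not followed with an array left out. No test for a single outlying array was run in these groups of 3.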

How the results depend on the processing

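All 24 stage changes of the 4 genes stayed called lower under every alternative run. The same held for LHCB4.2 and LHCB4.1 at 10-11 d and for LHCB4.2 and RCA at 12-13 d between accessions. Scaling to the reference genes turned the PSBY difference in change from 8-9 to 12-13 d to -0.0592 (adjusted p = 0.848), and it moved that comparison for all probe sets by -0.11. With a mean log2 of at least 6, 8093 probe sets were called from 8-9 to 12-13 d in C24 in place of 12211, with fewer tested. Leaving out 1 array gave 0 to 1 of the 4 genes called for the accessions at 8-9 d, for the difference in change in the first step and over the whole course, and for the second minus first step of either accession. For the second-step difference in change, 754 to 1493 probe sets were called in place of 1346, with 854, 754 and 881 without Col-0 replicate 1, Col-0 replicate 2 and C24 replicate 2 of 10-11 d. Signs of differences that were not called turned for RCA at 8-9 d (-0.0779 to 0.31) and 10-11 d (-0.22 to 0.00803), and for PSBY at 8-9 d (-0.0271 to 0.0800). They also turned in the difference in change for PSBY in the second step (-0.0928 to 0.0247) and over the whole course (-0.00909 to 0.10) and for LHCB4.1 over the whole course (-0.13 to 0.00061), and in the second minus first step for LHCB4.2 in Col-0 (-0.0300 to 0.33) and RCA in C24 (-0.43 to 0.0317). The cause was not tested. Under the reference scaling the probe sets called higher and lower became 6088 and 3085 (from 3828 and 4575), 6939 and 2310 (from 3366 and 3748) and 12969 and 3966 (from 6060 and 6270) for the first step, the second step and the whole course in Col-0. In C24 they became 7537 and 3925 (from 4707 and 5351), 2605 and 2186 (from 2222 and 2800) and 10071 and 4581 (from 5954 and 6257). Between accessions they became 3375 and 1326 at 8-9 d (from 2666 and 1752) and 1804 and 2722 at 12-13 d (from 2781 and 2227), and for the difference in change 313 and 1121 in the second step (from 591 and 755) and 502 and 1899 over the whole course (from 900 and 1180). Replicate numbers are shared between groups, and the deviations of same-numbered arrays correlated with a median r of 0.03 (from -0.16 to 0.24, over 0.1 in 10 of 45 pairs, against 9 of 90 pairs with other numbers), and 7 of 18 arrays correlated best with their own number. With the replicate number as a block the count of the 4 genes called was as without it in all 15 comparisons, and the probe sets called at 8-9 d between accessions went from 4418 to 4455. The 3 arrays of a group and their spread limit the precision, and the deposited values do not give signal over background.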
